A study of Homo sapiens and Canis lupus familiaris with 27 samples.

Results

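The genes described here are the aryl hydrocarbon receptor and its best known targets, taken by symbol: AHR, ARNT, AHRR, CYP1A1, CYP1B1, TIPARP and ALDH3A1. All 7 were among the 23708 genes of the human count tables and 6 were among the 16028 genes of the canine table, which did not list AHRR under that symbol. Genes were measured by RNA sequencing in prostate adenocarcinoma cell lines that had been treated with PDA-66, an indolylmaleimide. PC-3 is a human line from a bone metastasis, LNCaP is a human line from a lymph node metastasis, and CT1258 is a canine line. Each line was grown in its own medium with 10% fetal bovine serum (DMEM/Ham's F-12 for PC-3, RPMI 1640 for LNCaP, medium 199 for CT1258). PDA-66 was given at 15 µM and cells were harvested after 12 h or after 24 h, whereas control cells received 0.15% DMSO for 24 h. One DMSO group served both treatment times, so that the 12 h and 24 h comparisons of a line shared their control samples and the 12 h comparison also differed in time. Each group held 3 independent samples, except for PC-3 DMSO with 2 samples that had counts. Each line is 1 established culture, so that the samples do not represent different tumors.

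AHR is a transcription factor that waits in the cytoplasm, bound to chaperones, until a small planar molecule such as a dioxin, a plant indole or a tryptophan metabolite enters its pocket. It then moves to the nucleus, pairs with ARNT and binds short DNA elements near genes for drug-metabolizing enzymes, of which CYP1A1 and CYP1B1 are the classical readouts. AHRR and TIPARP are themselves induced by the receptor and restrain it, AHRR by competing for ARNT and TIPARP by ADP-ribosylating the receptor.

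The letters that the AHR and ARNT pair recognizes have the core GCGTG, and a longer form is written TNGCGTG, in which N is any base and which includes the core. Both were searched on both strands in the 1500 bases before the transcript start in the human genome GRCh37, for 19841 protein-coding genes. Of these genes, 80.2% had the core and 26.5% had the longer form. The bases were read for 5 of the 7 genes, all but CYP1B1 and ALDH3A1. These were left out because a separate set of human promoter sequences had no entry for them, so that their matches are not known. CYP1A1 had 10 matches to the core and 5 to the longer form, and only 0.0202% of genes had at least as many of the longer form. TIPARP had 6 and 0 matches, ARNT 5 and 2, AHRR 4 and 1, and AHR 0 of both. CYP1A1 is shown at positions -1132 to -833 relative to its start, the 300 bases of its upstream region that held the most matches to the longer form. It lies at chr15:75018702-75019001 (GRCh37, minus strand), and capitals mark 3 matches to TNGCGTG on either strand.
CYP1A1: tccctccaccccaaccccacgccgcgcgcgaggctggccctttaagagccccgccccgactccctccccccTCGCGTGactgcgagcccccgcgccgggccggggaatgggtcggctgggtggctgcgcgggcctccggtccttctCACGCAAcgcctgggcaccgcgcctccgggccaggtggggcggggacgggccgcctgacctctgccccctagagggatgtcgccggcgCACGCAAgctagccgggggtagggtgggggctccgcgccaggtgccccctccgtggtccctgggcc

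AHRR and TIPARP are shown because their RNA moved together with CYP1B1 in PC-3. The windows are the 250 bases before each start in GRCh37, at chr5:321579-321828 (plus strand) for AHRR and at chr3:156392129-156392378 (plus strand) for TIPARP. Capitals mark the core on either strand, with 1 match in AHRR and 2 in TIPARP. Of all genes, 40.3% had the core in such a window.
AHRR: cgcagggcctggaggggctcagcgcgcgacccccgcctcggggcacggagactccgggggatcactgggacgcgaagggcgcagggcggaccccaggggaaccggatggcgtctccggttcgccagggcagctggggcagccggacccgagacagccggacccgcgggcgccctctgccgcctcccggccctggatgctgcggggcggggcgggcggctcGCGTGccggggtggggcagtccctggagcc
TIPARP: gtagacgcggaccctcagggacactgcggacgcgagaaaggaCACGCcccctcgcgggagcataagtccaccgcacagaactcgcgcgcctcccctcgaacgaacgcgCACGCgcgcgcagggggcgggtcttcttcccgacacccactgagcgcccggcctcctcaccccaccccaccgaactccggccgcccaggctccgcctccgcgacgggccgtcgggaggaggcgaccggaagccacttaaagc
A match says only that these letters are present, and binding was not measured.

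Total counts ranged from 14650839 to 18091755 in PC-3, from 11923105 to 14741883 in LNCaP and from 7203534 to 20976950 in CT1258, where the DMSO samples held 2.64 times the counts of the treated samples. LNCaP carried its luminal markers, with KLK2 at 255 CPM (counts scaled to the library size) or more in every sample. PC-3 had KLK2 at 0 and TMPRSS2 at no more than 0.671 CPM, and its keratin KRT8 lay between 128 and 196 CPM. The leukocyte marker CD68 lay between 65.1 and 134 CPM in PC-3. Of the other leukocyte markers there, PTPRC was at no more than 1.13 CPM and CD3E at no more than 0.0592 CPM. In CT1258, TMPRSS2 was at 0, the only listed epithelial marker EPCAM was at no more than 0.262 CPM, and the fibroblast marker LUM lay between 262 and 429 CPM. The epithelial label of CT1258 was thus not shown by these markers. In PC-3 the summed fibroblast markers were 42.7 to 64.2 CPM in DMSO against 10.1 to 21.6 CPM in treated cells, the endothelial ones 13.0 to 18.8 against 4.26 to 10.1 CPM, the leukocyte ones 103 to 134 against 66.2 to 80.0 CPM, and the epithelial ones 987 to 1088 against 658 to 908 CPM. Single genes made up much of these PC-3 sums. Over all PC-3 samples COL1A2 spanned 3.86 to 54.9 CPM and COL1A1 6.01 to 9.36 CPM, while DCN and LUM had 14 counts each. PECAM1 had 1122 counts there, against 19 for VWF and 15 for CDH5. In LNCaP the summed endothelial markers were 22.9 to 40.2 CPM in DMSO, 4.85 to 14.6 CPM at 12 h and 6.18 to 7.28 CPM at 24 h. That endothelial sum was nearly all VWF, with 1776 counts over the LNCaP samples against 1 each for PECAM1 and CDH5. Each line is 1 established culture, so that these sums are RNA levels of marker genes and not shares of other cell types. Bulk RNA does not show whether all cells of a culture changed alike. The part of these differences in the results below was not tested.

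In PC-3, the RNA of the receptor's classical targets was higher after PDA-66. CYP1B1 rose most among them, 12.7-fold at 12 h and 12.6-fold at 24 h. AHRR rose about 5.1-fold and TIPARP about 2-fold at both times, whereas ALDH3A1 and CYP1A1 passed the threshold only at 24 h. In LNCaP the pattern was narrower, since CYP1B1 and ALDH3A1 were at or near 0 and CYP1A1 alone was higher at an adjusted p under 0.05, 13.3-fold at 12 h and 10.8-fold at 24 h. In CT1258, TIPARP was the only target with enough counts for the test and did not pass it, while AHR itself was 1.48-fold higher at 12 h. A gene was called different where its false discovery rate (FDR) was under 0.001, the threshold of the study. The FDR is the p of the quasi-likelihood test in edgeR, adjusted after Benjamini and Hochberg for all genes that a line's fit tested.

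**Figure D1:**
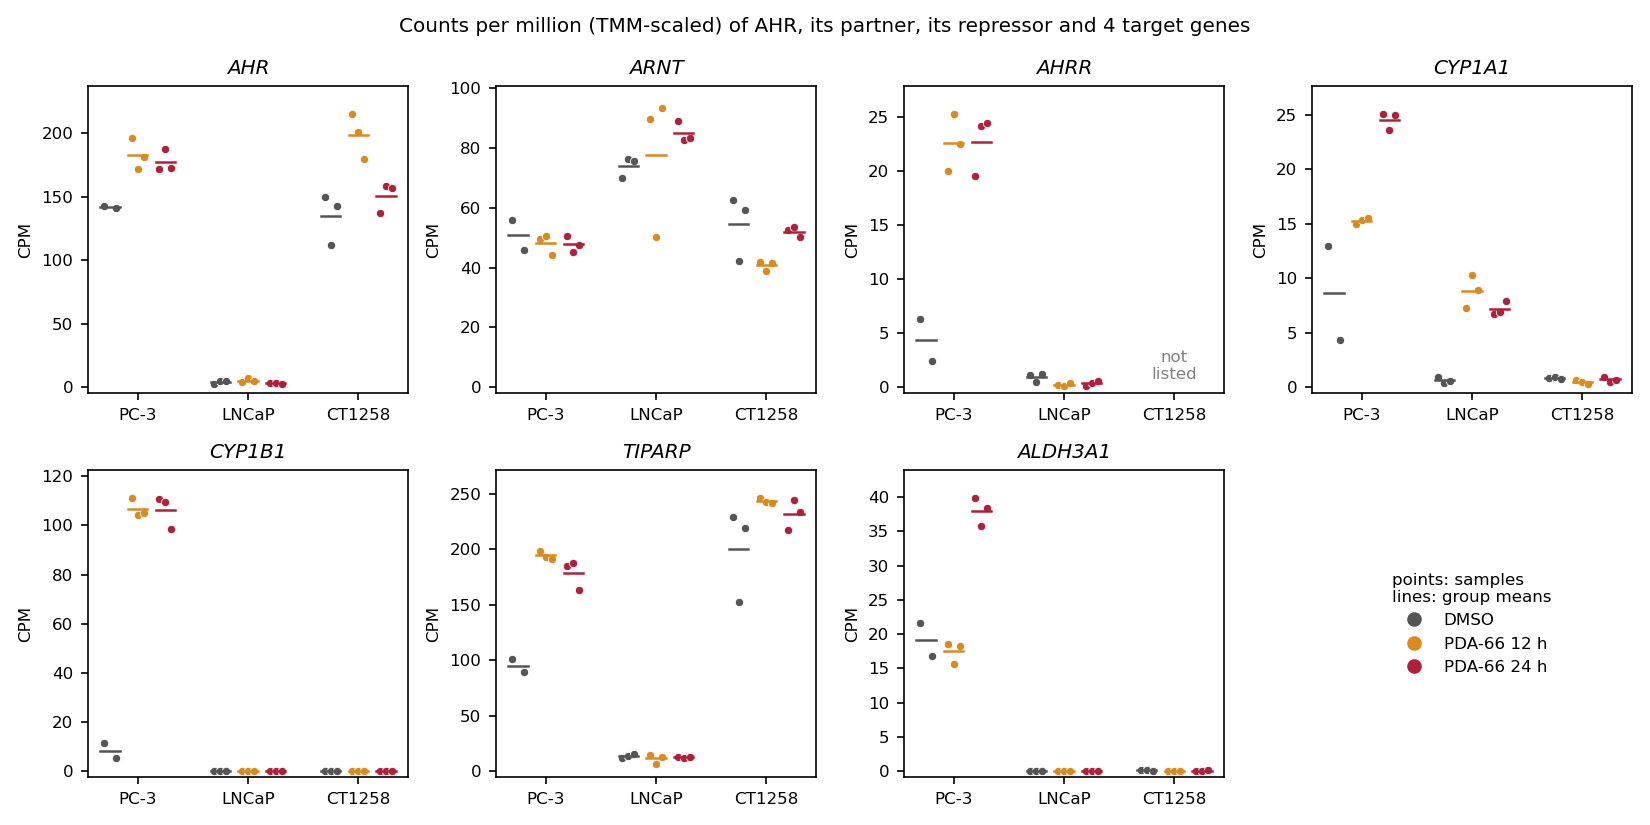
CPM of each gene (linear axis from 0) in PC-3, LNCaP and CT1258, with DMSO, 12 h and 24 h PDA-66 as groups, points as samples and lines as group means. In PC-3 the treated CYP1B1 samples lie between 98.7 and 111 CPM, above both DMSO samples at 11.4 and 5.43 CPM.

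AHR itself (chr7:16955983-17385776, plus strand, GRCh37) was plentiful in PC-3. The 2 DMSO samples had 143 and 142 CPM, the 12 h samples 196, 172 and 182 CPM and the 24 h samples 172, 188 and 172 CPM. All treated samples lay above both controls, as was the case for 70.9% of all genes tested, in either direction, at 12 h and 61.9% at 24 h. AHR had a log2 fold change of 0.36 ± 0.0960 (SE, FDR = 0.00551) at 12 h and 0.32 ± 0.0959 (FDR = 0.0146) at 24 h, under 0.05 but not under 0.001. In the annotation 38.0% of the receptor's exon bases also belonged to an unnamed gene on the same strand, whose reads could not be separated.

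In LNCaP the receptor was scarce. DMSO samples had 2.75, 5.27 and 5.4 CPM, 12 h samples 4.12, 7.16 and 4.81 CPM and 24 h samples 3.12, 3.80 and 2.99 CPM. The groups overlapped, and neither time passed the test (log2 fold change 0.26 ± 0.306, FDR = 0.59, and -0.43 ± 0.313, FDR = 0.503). In CT1258 the values were 150, 112 and 143 CPM in DMSO, 215, 201 and 180 CPM at 12 h and 137, 158 and 157 CPM at 24 h. All 12 h samples were higher than all controls, whereas the 24 h samples overlapped with them. AHR rose 1.48-fold at 12 h in CT1258 (log2 fold change 0.56 ± 0.112, FDR = 0.000484) and was not called at 24 h (0.16 ± 0.112, FDR = 0.223). The 12 h call ended without 12 h replicate 1 (FDR = 0.00418), 12 h replicate 2 (FDR = 0.00280) or 24 h replicate 2 (FDR = 0.001003). From 12 h to 24 h, AHR in CT1258 had a log2 difference of -0.40 ± 0.113 (FDR = 0.0253), which passed 0.001 without DMSO replicate 2 (FDR = 0.000165). That control sample had 0.764 times the AHR level of the other DMSO samples, 0.693 times their ARNT and 0.679 times their TIPARP.

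ARNT (chr1:150782189-150849184, minus strand), the nuclear partner that AHR shares with the hypoxia-inducible factors, was expressed in all lines. In PC-3 it had 55.9 and 46.0 CPM in DMSO, 44.4 to 50.7 CPM at 12 h and 45.3 to 50.6 CPM at 24 h, and the groups overlapped (FDR = 0.564 and 0.524). In LNCaP it had 70.1, 76.1 and 75.6 CPM in DMSO, 89.6, 50.3 and 93.1 CPM at 12 h and 88.9, 82.7 and 83.2 CPM at 24 h. The 12 h sample at 50.3 CPM is replicate 2, which stood apart from the other 12 h samples over much of the transcriptome, with 30.3% of genes above 1.5 times and 28.5% below 1/1.5 of their mean. Neither time passed the test in LNCaP (FDR = 0.848 and 0.684).

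In CT1258, ARNT had 62.6, 42.2 and 59.2 CPM in DMSO, 42.0, 38.7 and 41.7 CPM at 12 h and 52.4, 53.5 and 50.2 CPM at 24 h. All 12 h samples lay just below the lowest control. The 12 h log2 fold change was -0.42 ± 0.130 (FDR = 0.0102), under 0.05 but not under 0.001. Without DMSO replicate 2 it was -0.58 (FDR = 4.55e-07). At 24 h the value was -0.07 ± 0.128 (FDR = 0.648).

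AHRR (chr5:321829-438406, plus strand), the repressor, was low in PC-3 controls and rose with treatment. DMSO samples had 6.35 and 2.48 CPM, 12 h samples 20.03, 25.3 and 22.4 CPM and 24 h samples 19.5, 24.1 and 24.4 CPM. Every treated sample exceeded both controls, and the times overlapped with each other. AHRR rose by 2.35 ± 0.263 (FDR = 7.92e-06) at 12 h and by 2.36 ± 0.264 (FDR = 1.37e-05) at 24 h on the log2 scale. The 2 controls differed 2.56-fold in AHRR, and without replicate 2 the fold change was 9.10 at 12 h and 9.15 at 24 h. Nearly all exon bases of AHRR (98.1%) were shared with the readthrough gene PDCD6-AHRR, so that its level is uncertain where the counting could split reads.

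In LNCaP, AHRR stayed below the filter on low counts, with 64 counts over 9 samples. The DMSO samples had 16, 6 and 16 counts, the 12 h samples 3, 1 and 6 counts and the 24 h samples 2, 6 and 8 counts. These are 0.494 to 1.24 CPM in DMSO, 0.0823 to 0.430 CPM at 12 h and 0.135 to 0.613 CPM at 24 h. All 12 h samples were lower than the controls, whereas the 24 h samples overlapped with them. Of all genes tested in LNCaP, 28.1% had no overlap at 12 h, in either direction. With no filter, the log2 fold change was -1.94 ± 0.637 (FDR = 0.0905) at 12 h and -1.26 ± 0.592 (FDR = 0.339) at 24 h, neither past a threshold. The responses of the lines were not compared for AHRR, since a gene was used in such a comparison only where it passed the filter within both lines.

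CYP1B1 (chr2:38294116-38337044, minus strand), which oxidizes estrogens and polycyclic hydrocarbons, had the largest response of the group in PC-3. DMSO samples had 11.4 and 5.43 CPM, 12 h samples 111, 104 and 105 CPM and 24 h samples 111, 109 and 98.7 CPM. The treated samples were close to each other and far above both controls. CYP1B1 rose on the log2 scale by 3.67 ± 0.212 (FDR = 2.36e-08) at 12 h and by 3.66 ± 0.212 (FDR = 7.27e-08) at 24 h, with a difference between the times of -0.01 ± 0.149 (FDR = 0.983). The controls differed 2.10-fold in CYP1B1. Without DMSO replicate 2, with 1 control left, the fold change was 19.8 at 12 h and 19.6 at 24 h. Over all fits that left out 1 sample, the log2 fold change ranged from 3.24 to 4.30 at both times. In the annotation 12.9% of its exon bases overlapped the antisense gene CYP1B1-AS1, and the strand setting of the counting is not given in the sources used here.

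The same gene was at or near 0 in the other lines. LNCaP had 1 CYP1B1 count in 9 samples, in a 24 h sample, and CT1258 had 0 counts in 9 samples. A count of 0 over all CT1258 samples allows a level of up to 0.0279 CPM (3 counts of the total), counting error only. In the DMSO samples CYP1B1 was at least 110-fold higher in PC-3 than in LNCaP, with 3 counts over the LNCaP group as the floor. Without PC-3 DMSO replicate 2 this limit was 71.1-fold.

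CYP1A1 (chr15:75011883-75017877, minus strand), a much used readout of the receptor, had higher means after treatment in both human lines. In PC-3, DMSO samples had 13.0 and 4.36 CPM, 12 h samples 15.0, 15.3 and 15.6 CPM and 24 h samples 25.1, 23.6 and 24.96 CPM. The 12 h samples lay only a little above the higher control, and the 24 h samples lay clearly above it. Its log2 fold change was 0.82 ± 0.282 (FDR = 0.0237) at 12 h, not called, and 1.503 ± 0.279 (FDR = 0.000673) at 24 h, a 2.83-fold rise.

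Both PC-3 values depended on the controls, which differed 2.97-fold in CYP1A1. Only 2.32% of all genes had DMSO replicate 2 at more than 2 times replicate 3. Without replicate 2, CYP1A1 was 3.52-fold higher at 12 h and 5.65-fold higher at 24 h. This fit and the one without replicate 3 held 1 control. Over all fits that left out 1 sample, the log2 fold change ranged from 0.25 to 1.82 at 12 h and from 0.94 to 2.50 at 24 h. The 24 h call ended in 6 of 8 fits that left out 1 sample, namely without P12-1 (FDR = 0.00118), P12-2 (FDR = 0.00113), 12 h replicate 3 (FDR = 0.00136) or 24 h replicate 1, 2 or 3 (FDR = 0.00271, 0.00224 and 0.00409). The log2 fold change in these 6 fits was 1.49 to 1.53. P12-1 and P12-2 are names of 12 h samples. The step from 12 h to 24 h was 0.68 ± 0.227 (FDR = 0.0763). In the fits without DMSO replicate 2 or replicate 3 it was 0.68 and 0.69. The step does not use the controls. With 1 control left, their gap no longer enters the shared spread, so that no FDR is given for these fits.

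In LNCaP the level of CYP1A1 was low and its fold change large. DMSO samples had 13, 5 and 8 counts (0.917, 0.411 and 0.618 CPM), 12 h samples 110, 125 and 125 counts (7.30, 10.3 and 8.97 CPM) and 24 h samples 100, 93 and 103 counts (6.77, 6.93 and 7.89 CPM). Treated and control samples were far apart. The log2 fold change was 3.73 ± 0.287 at 12 h (FDR = 0.00113) and 3.43 ± 0.288 at 24 h (FDR = 0.00174). Both passed 0.05 and narrowly missed 0.001, and this fit called 1 gene of 13156 at 12 h and 0 genes at 24 h. Without 12 h replicate 2 both passed (FDR = 0.000286 and 0.000104). The times did not differ beyond their error (log2 difference -0.30 ± 0.228, FDR = 0.677).

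In CT1258, CYP1A1 was below the filter, with 18, 19 and 16 counts in DMSO, 5, 4 and 2 counts at 12 h and 8, 4 and 5 counts at 24 h. Since the DMSO samples were sequenced more deeply, these are 0.795 to 0.945 CPM in DMSO, 0.267 to 0.666 CPM at 12 h and 0.525 to 0.982 CPM at 24 h. All 12 h samples were lower than the controls, whereas the 24 h samples overlapped with them. With no filter the log2 fold change was -0.89 ± 0.483 (FDR = 0.131) at 12 h and -0.26 ± 0.436 (FDR = 0.649) at 24 h.

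The responses of CYP1A1 in the human lines were compared in one fit, and their difference did not pass 0.001. The response in PC-3 minus that in LNCaP was -2.86 ± 0.482 on the log2 scale at 12 h (FDR = 0.00113) and -1.90 ± 0.486 at 24 h (FDR = 0.0285). The 12 h difference passed 0.001 without LNCaP 12 h replicate 1 (-2.97, FDR = 0.000960) or LNCaP 12 h replicate 2 (-2.74, FDR = 0.000544). Without PC-3 DMSO replicate 3, with 1 PC-3 control left, it was -3.44. Over all 17 fits that left out 1 sample, the difference ranged from -3.44 to -1.86 at 12 h and from -2.48 to -0.90 at 24 h. CYP1A1 in CT1258 was below the filter and entered no comparison between lines. The comparisons with CT1258 matched genes by symbol, and species, medium and mapping cannot be told apart from the cell line.

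TIPARP (chr3:156391024-156424559, plus strand) was expressed in all lines. In PC-3 it had 101 and 89.7 CPM in DMSO, 198, 194 and 192 CPM at 12 h and 185, 188 and 164 CPM at 24 h. Controls and treated samples did not overlap. TIPARP rose by 1.03 ± 0.102 (FDR = 2.73e-06) on the log2 scale at 12 h and by 0.91 ± 0.101 (FDR = 1.39e-05) at 24 h.

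In LNCaP, TIPARP had 12.1, 13.6 and 15.7 CPM in DMSO, 14.9, 6.92 and 13.3 CPM at 12 h and 12.9, 12.2 and 12.6 CPM at 24 h. The groups overlapped, with replicate 2 of 12 h lowest (log2 fold change -0.23 ± 0.261, FDR = 0.569, and -0.14 ± 0.260, FDR = 0.834). In CT1258 it had 229, 152 and 220 CPM in DMSO, 247, 242 and 242 CPM at 12 h and 217, 245 and 233 CPM at 24 h. The 12 h samples were above all controls, and the 24 h samples overlapped with them. Neither time passed (0.28 ± 0.124, FDR = 0.0551, and 0.21 ± 0.124, FDR = 0.153). The PC-3 response minus the LNCaP response was 1.31 ± 0.304 at 12 h (FDR = 0.00989) and 1.08 ± 0.303 at 24 h (FDR = 0.0456), and without LNCaP 12 h replicate 2 both passed 0.001 (1.04, FDR = 0.000206, and 1.08, FDR = 0.000145). The CT1258 response minus the PC-3 response was -0.73 ± 0.266 at 12 h (FDR = 0.0404) and -0.69 ± 0.266 at 24 h (FDR = 0.0691).

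ALDH3A1 (chr17:19641297-19652256, minus strand), which oxidizes aromatic and fatty aldehydes, rose in PC-3 at 24 h. DMSO samples had 21.6 and 16.8 CPM, 12 h samples 18.5, 15.6 and 18.3 CPM and 24 h samples 39.8, 35.7 and 38.4 CPM. The 12 h samples overlapped with the controls and every 24 h sample lay above all others. ALDH3A1 had a log2 fold change of -0.13 ± 0.135 (FDR = 0.424) at 12 h and 0.98 ± 0.133 (FDR = 6.22e-05) at 24 h. The step from 12 h to 24 h, 1.12 ± 0.117 (FDR = 7.20e-05, 2.17-fold), was the only one among the 7 genes past 0.001, against 1.41% of all genes. LNCaP had 1 ALDH3A1 count over 9 samples and CT1258 had 10, of which 9 were in DMSO. In DMSO the level was at least 251-fold higher in PC-3 than in LNCaP.

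**Figure D2:**
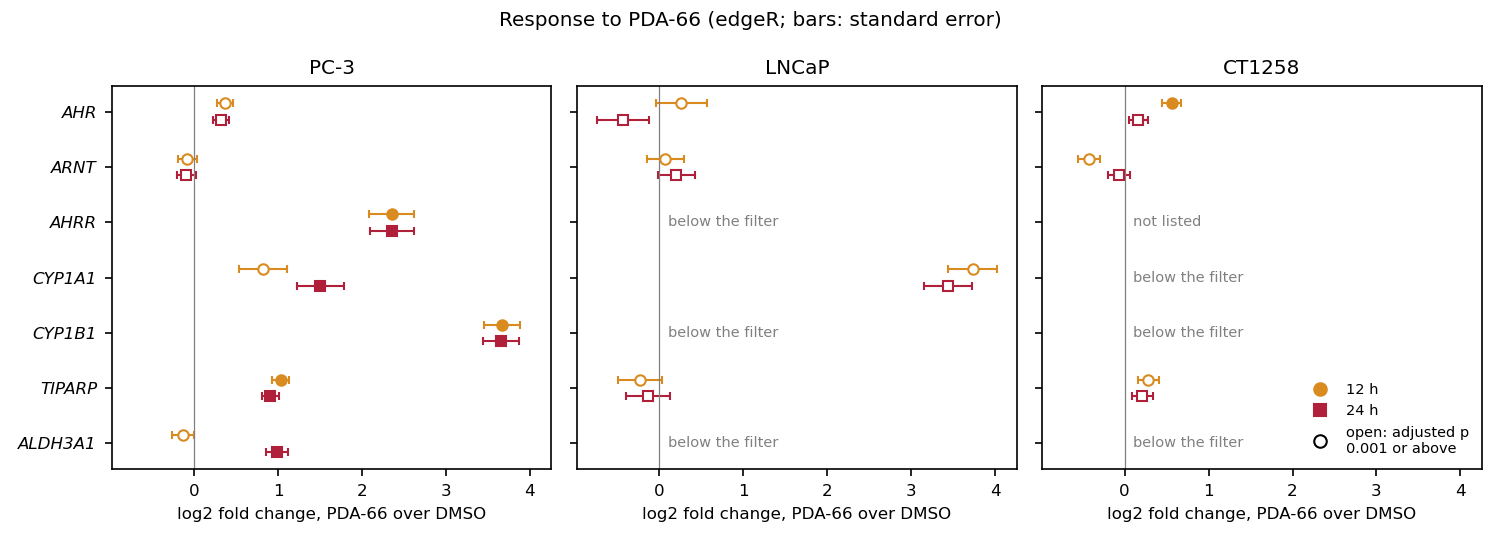
Log2 fold change against DMSO (points, with bars of 1 standard error) of each gene that passed the filter on low counts, at 12 h and 24 h in PC-3, LNCaP and CT1258, with open symbols where the adjusted p was 0.001 or more. CYP1B1 in PC-3 (3.67 and 3.66) and CYP1A1 in LNCaP (3.73 and 3.43) stand furthest from 0.

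The genes called can be set beside the transcriptome. In PC-3, 3 of 7 genes were called at 12 h and 5 of 7 at 24 h, all higher, while 27.6% and 19.3% of all genes tested were called (13% and 8.88% higher). The median log2 fold change of the 7 genes was 0.82 and 0.98, beside -0.0052 and -0.0104 over all genes tested. In LNCaP 4 of the 7 genes passed the filter. None of the 4 was called by edgeR's quasi-likelihood test at either time, beside 0.0076% and 0% of all genes. The quasi-likelihood test gave 1 of 4 an unadjusted p under 0.05 at each time, and edgeR's likelihood ratio test, DESeq2 and limma voom each called 1, CYP1A1. Of all 13156 genes, the likelihood ratio test called 571 at 12 h and 258 at 24 h. DESeq2 called 620 and 286 of them, and limma voom 1831 and 1473. At an FDR under 0.05 the quasi-likelihood test called 1 of 4, beside 9.14% and 2.92% of all genes. The median of the 4 was 0.17 and 0.03. In CT1258 3 of the 6 listed genes passed the filter. Of these 1 was called at 12 h and 0 at 24 h, beside 44.3% and 33.8% of all genes, with medians of 0.28 and 0.16. At 24 h in CT1258 the quasi-likelihood test gave 0 of 3 an unadjusted p under 0.05, and the likelihood ratio test, DESeq2 and limma voom called 0. Of all 9886 genes the latter tests called 4204, 4016 and 5425, in that order. From 12 h to 24 h, 0 genes were called in LNCaP (0% of all genes) and in CT1258 (2.13% of all genes). In that step the quasi-likelihood test gave 0 of 4 and 2 of 3 an unadjusted p under 0.05, the likelihood ratio test and DESeq2 called 0 in both lines, and limma voom called 0 and 2. Of all genes, limma voom called 189 of 13156 in LNCaP and 2073 of 9886 in CT1258. The likelihood ratio test called 4 and 730 of them, and DESeq2 1 and 667. Between lines, genes were counted that passed the filter within both. Between PC-3 and LNCaP responses 0 of 4 were called at either time by the quasi-likelihood test (1.53% and 0.266% of all genes), with 2 of 4 at 12 h and 3 of 4 at 24 h at an unadjusted p under 0.05. The likelihood ratio test and DESeq2 each called 2 of the 4 at 12 h, CYP1A1 and TIPARP, and 0 at 24 h. Of all 15018 genes they called 733 and 840 at 12 h, and 344 and 440 at 24 h. Between CT1258 and PC-3 responses 0 of 3 were called at either time (9.33% and 4.79% of all genes), and between CT1258 and LNCaP responses 0 of 3 as well (12.8% and 3.44%). Each of these had 1 of 3 at an unadjusted p under 0.05, and the likelihood ratio test and DESeq2 called 0. Against PC-3, the likelihood ratio test called 1689 and 1023 of all 11736 genes at 12 h and 24 h, and DESeq2 1828 and 1148. Against LNCaP, the likelihood ratio test called 2350 and 862, and DESeq2 2504 and 1037.

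At the looser threshold of 0.05, 5 of the 7 genes passed in PC-3 at 12 h and 6 at 24 h, beside 57% and 49.9% of all genes, and 1 passed between the times, beside 10.1%. In LNCaP no gene passed between the times at 0.05, beside 0% of all genes. In CT1258 2 of 3 passed at 12 h, 0 at 24 h and 1 between the times, beside 69.8%, 62.1% and 19.3% of all genes. CT1258 samples did not overlap with the controls for 72.8% of all genes at 12 h and 66.3% at 24 h, in either direction. Responses of PC-3 and LNCaP differed at 0.05 for 2 of 4 genes at each time (13.7% and 5.99% of all genes). Those of CT1258 and PC-3 differed for 1 of 3 genes, TIPARP, at 12 h and 0 of 3 at 24 h (30.1% and 21.2%), and those of CT1258 and LNCaP for 0 of 3 at each time (40.2% and 21.1%).

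Before treatment the human lines already differed. Of the 4 genes that passed the filter within both lines, 3 were higher in PC-3 than in LNCaP in the DMSO samples, beside 40.8% of all genes called (21.7% higher in PC-3). At 0.05 all 4 differed, beside 63.6% of all genes. AHR was 32.5-fold higher (log2 difference 5.02 ± 0.244, FDR = 1.69e-11), CYP1A1 13.2-fold (3.73 ± 0.388, FDR = 2.69e-07) and TIPARP 7.03-fold (2.81 ± 0.224, FDR = 9.07e-09). CYP1A1 was 6.66-fold higher without PC-3 DMSO replicate 2 and 19.9-fold higher without replicate 3. ARNT was not called (-0.51 ± 0.209, FDR = 0.0423), but passed 0.001 without LNCaP 12 h replicate 2 (-0.51, FDR = 0.000301). Cell line, medium and library preparation cannot be told apart in this comparison.

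Levels of different genes were compared per kb of exon. In PC-3 DMSO samples the order was TIPARP with 24.7 ± 2.08 CPM per kb (SD, n = 2), AHR with 22.8 ± 0.173, ALDH3A1 with 11.7 ± 2.09, ARNT with 10.8 ± 1.49, CYP1A1 with 3.33 ± 2.34, CYP1B1 with 1.61 ± 0.811 and AHRR with 0.780 ± 0.483. TIPARP and AHR, ALDH3A1 and ARNT, and the 3 lowest genes lay within the spread of their neighbors. In LNCaP DMSO samples ARNT led with 15.7 ± 0.712 CPM per kb (n = 3), before TIPARP with 3.58 ± 0.471 and AHR with 0.717 ± 0.239. CYP1A1 with 0.249 ± 0.0977 and AHRR with 0.168 ± 0.0708 overlapped, and CYP1B1 and ALDH3A1 had 0 counts. After 12 h of PDA-66 in PC-3, CYP1B1 was next in order with 20.5 ± 0.719 CPM per kb after TIPARP with 50.4 ± 0.914 and AHR with 29.3 ± 1.99.

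**Figure D3:**
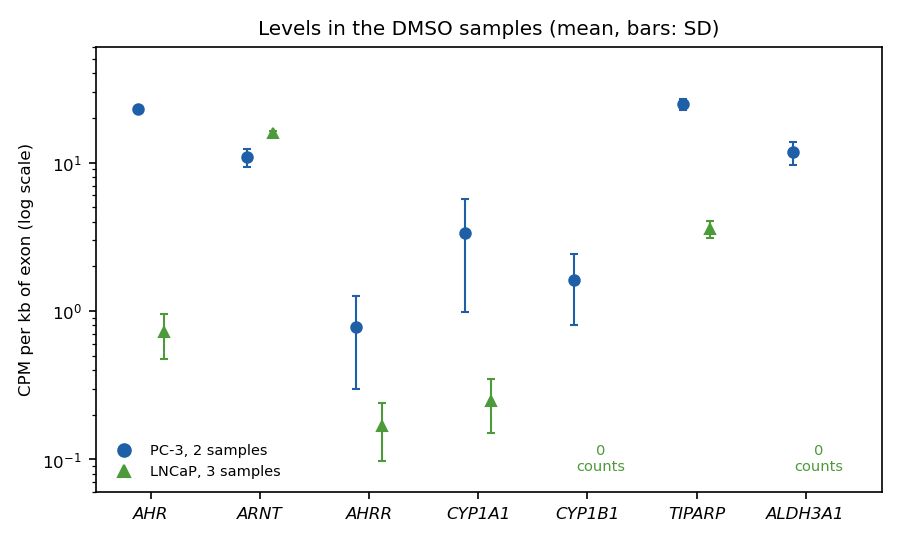
Level of each gene in DMSO samples of PC-3 and LNCaP as CPM per kb of exon (log axis), with symbols as group means and bars as the SD over 2 PC-3 samples and 3 LNCaP samples. ARNT lies close in both lines, while AHR is at 22.8 in PC-3 and 0.717 in LNCaP, and CYP1B1 and ALDH3A1 had 0 counts in LNCaP.

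The wider pathway was read through lists of related genes, given by counts and medians. Their counts stand beside the share of all genes called, which was 27.6% and 19.3% in PC-3 and 44.3% and 33.8% in CT1258. Among 9 genes of the receptor complex and the ARNT family, 7 were tested in PC-3, of which 3 rose at 12 h and 2 at 24 h, with medians of 0.40 and 0.39. In LNCaP 0 of 7 were called (1 under 0.05 at 12 h), and in CT1258 2 of 2 rose at both times. The chaperone gene HSP90AA1, whose product holds AHR in the cytoplasm, rose from 2442 ± 4.36 CPM (SD) to 5132 ± 133 CPM at 12 h in PC-3 (log2 fold change 1.07, FDR = 1.39e-06) and from 462 ± 52.3 to 1864 ± 73.9 CPM in CT1258 (2.01, FDR = 1.53e-09). In LNCaP its value at 12 h was 1.17 (FDR = 0.00818). At 24 h it was 0.79 (FDR = 2.91e-05) in PC-3 and 1.34 (FDR = 6.21e-08) in CT1258.

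The cochaperone gene PTGES3 rose in CT1258 as well, by 0.93 (FDR = 1.61e-06) and 0.72 (FDR = 2.59e-05) on the log2 scale. EPAS1, the gene of a hypoxia-inducible factor that pairs with ARNT, rose in PC-3 at 12 h from 35.5 ± 13.2 to 65.2 ± 2.34 CPM (0.87, FDR = 0.000674), a call that 6 of 8 fits without 1 sample ended, all but those without either DMSO sample (1.32 without replicate 2 and 0.55 without replicate 3). ARNT2, a partner related to ARNT, was low in PC-3, with 6 to 9 counts in DMSO and 25 to 43 counts at 24 h (2.05, FDR = 0.000876), and 7 of 8 fits that left out 1 sample ended this call, all but the one without P12-1. Among the coregulators and turnover genes, 1 of 9 rose at 12 h in PC-3 and 0 at 24 h (medians 0.08 and 0.13), 0 of 9 were called in LNCaP, and in CT1258 1 of 7 rose and 1 fell at 12 h and 1 rose at 24 h. The ones called were NCOA1 at 12 h in PC-3 (0.71, FDR = 0.000541) and SMARCA4 at 12 h in CT1258 (-0.38, FDR = 0.000645). CUL4B was called in CT1258 at 12 h (1.02, FDR = 1.96e-06) and at 24 h (0.58, FDR = 0.000458). Leaving out 1 sample ended the NCOA1 call in 5 of 8 fits (FDR up to 0.00340), namely without DMSO replicate 3, any 12 h sample or 24 h replicate 3. It ended the 24 h call of CUL4B in 4 of 9 fits (FDR up to 0.00416), without any 24 h sample or DMSO replicate 3. The 12 h call of SMARCA4 ended in 7 of 9 fits (FDR up to 0.00541), all but those without 24 h replicate 1 or DMSO replicate 2.

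Other genes that have been described as AHR targets moved in both directions. Of 21 genes, 17 were tested in PC-3, of which 5 rose and 4 fell at 12 h and 6 rose and 4 fell at 24 h (medians 0.66 and 0.58). In LNCaP 0 of 13 were called, with 2 higher and 2 lower under 0.05 at each time (medians -0.53 and -0.53). In CT1258 1 of 6 rose and 3 fell at 12 h, and 1 rose and 4 fell at 24 h (medians -0.53 and -0.49). SERPINB2, which encodes a plasminogen activator inhibitor, rose from 13.3 ± 0.0296 to 106 ± 3.05 CPM at 12 h in PC-3 (2.99, FDR = 7.42e-10) and was at 37.4 ± 1.86 CPM at 24 h (1.49, FDR = 3.82e-07). It rose in CT1258 by 2.79 (FDR = 1.97e-07) and 2.44 (FDR = 1.68e-06), and had 0 counts in LNCaP. ALDH1A3, which makes retinoic acid, rose 7.41-fold and 6.15-fold in PC-3 (FDR = 6.04e-09 and 3.98e-08), and in LNCaP had log2 values of -0.86 (FDR = 0.0186) and -0.90 (FDR = 0.0339). UGT1A1, a glucuronosyltransferase gene that shares exons with its family and is uncertain for that reason, rose in PC-3 at 24 h by 2.43 (FDR = 1.08e-05). XDH, the xanthine dehydrogenase gene, fell in PC-3 from 4.54 ± 0.311 to 1.83 ± 0.0495 CPM at 12 h (-1.31, FDR = 0.000104) and 1.13 ± 0.130 CPM at 24 h (-2.01, FDR = 1.04e-05).

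CYP1A2, the liver neighbor of CYP1A1 on chromosome 15 (chr15:75041186-75048948, plus strand), was singled out after its values were seen. In LNCaP it had 5, 0 and 1 counts in DMSO, 24, 29 and 25 counts at 12 h and 23, 14 and 18 counts at 24 h. No treated sample overlapped with a control, as for 28.1% of all genes at 12 h and 44.7% at 24 h. The log2 fold change was 3.58 ± 0.593 (FDR = 0.0103) and 3.06 ± 0.615 (FDR = 0.0362) by edgeR's quasi-likelihood test, not called at 0.001. CYP1A2 was called at both times by edgeR's likelihood ratio test (FDR = 2.11e-09 and 4.90e-06), DESeq2 (FDR = 1.14e-05 and 0.000624) and limma voom (FDR = 1.70e-05 and 4.53e-05). In that order, these tests called 571, 620 and 1831 of all 13156 genes at 12 h, and 258, 286 and 1473 at 24 h. In PC-3 no sample had more than 2 counts of CYP1A2. The liver marker ALB lay between 1.70 and 4.28 CPM over the LNCaP samples.

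Enzymes that form or remove tryptophan-derived AHR ligands changed in opposite directions. In PC-3, 1 of 5 rose and 1 fell at both times (medians 0.54 and -0.18), in LNCaP 0 of 2 were called, and in CT1258 1 of 4 rose at 12 h and 0 at 24 h (medians 0.24 and 0.0037). KYNU, the kynureninase gene, rose in PC-3 from 0.977 ± 0.338 to 4.90 ± 0.513 CPM at 12 h (2.32, FDR = 6.22e-06) and 4.62 ± 0.364 CPM at 24 h (2.24, FDR = 1.60e-05). IDO1, which starts the conversion of tryptophan to kynurenine, fell in PC-3 from 3.70 ± 0.399 to 0.569 ± 0.227 CPM at 12 h (-2.71, FDR = 1.82e-05) and 0.966 ± 0.331 CPM at 24 h (-1.94, FDR = 0.000214). The 24 h call ended without 24 h replicate 1 or replicate 3 (FDR up to 0.00125). In CT1258 the same gene rose at 12 h, from 1 to 5 counts in the DMSO samples to 13 to 17 counts (log2 fold change 3.70, FDR = 8.34e-06).

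For comparison, the receptors PXR and CAR with their targets, another drug-sensing system, gave 3 tested genes in PC-3, of which 1 rose and 1 fell at 12 h and 1 rose at 24 h (medians -0.26 and 0.60). In LNCaP 0 of 3 were called and in CT1258 none of the 8 was tested. RXRA, the dimer partner of PXR, rose in PC-3 by 1.37 (FDR = 6.58e-06) and 1.18 (FDR = 3.65e-05). CYP3A5 fell in PC-3 at 12 h from 2.19 ± 0.249 to 0.417 ± 0.106 CPM (-2.37, FDR = 0.000296), a call that ended without DMSO replicate 2 or any 12 h sample (FDR up to 0.00197).

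**Figure D4:**
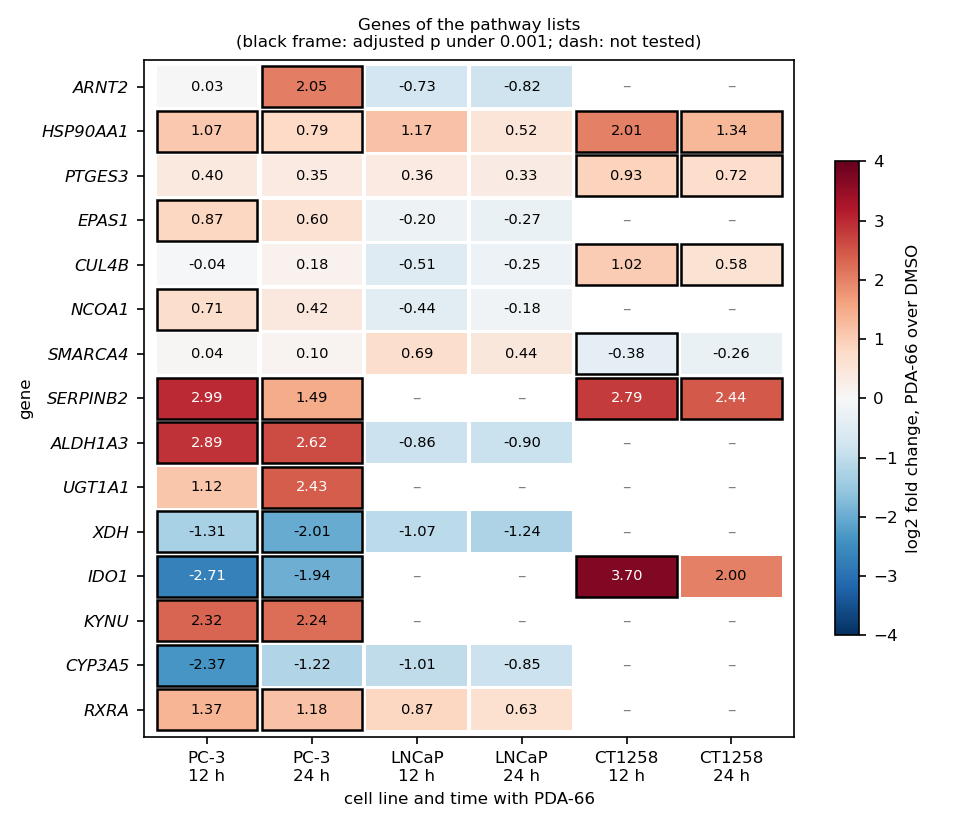
Log2 fold change against DMSO of the genes named from the related lists, at 12 h and 24 h in PC-3, LNCaP and CT1258, as a heat map with the value in each cell, a black frame where the adjusted p was under 0.001 and a dash where a gene was not tested. SERPINB2 and ALDH1A3 lie above 2 at 12 h in PC-3, while IDO1 is at -2.71 in PC-3 and 3.70 in CT1258 at 12 h.

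The pattern over samples was compared by Pearson's r of log2 CPM, as a description with no test. Within PC-3 (8 samples, of which 6 were treated), CYP1B1 had r = 0.985 with TIPARP, 0.982 with AHRR, 0.916 with AHR, 0.838 with CYP1A1, 0.373 with ALDH3A1 and -0.23 with ARNT. Among 13776 other genes, those most like CYP1B1 in PC-3 were PGM2 (0.998), DMD (0.998) and PRPS1 (0.997), and those most like TIPARP were ZW10 (0.999), TPM3 (0.998) and GRAMD3 (0.998). All of these were higher in treated samples, for example PGM2 at 26.4 ± 2.75 CPM in DMSO and 52.6 ± 0.649 CPM at 12 h, so that r mostly repeats the contrast of treated and control samples. In LNCaP, the genes most like TIPARP over 9 samples were ZNF585B (0.987), SLC7A2 (0.985) and FAM122A (0.984), which were also low in 12 h replicate 2. In CT1258 they were Q8SPM0_CANFA (0.991), SNX24 (0.988) and NAV3 (0.988).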

How the data were processed

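The authors sequenced poly(A)-selected RNA of the 3 lines as 75 bp single reads. The authors aligned human reads to HG19 with STAR 2.3.1s and canine reads to CanFam3.1 with BWA, and deposited raw read counts per gene without normalization, one table per line. One PC-3 DMSO sample was left out by the authors as an outlier, and 26 of 27 samples had counts. P12-1 and P12-2 are 12 h samples whose replicate number the labels leave unclear. In the deposited PC-3 table one column carried 7 trailing semicolons per value, which were removed.

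Within each line, genes passing filterByExpr were fitted with edgeR 4.0.16 (R 4.3.3, TMM scaling, quasi-likelihood test, Benjamini-Hochberg), with all 3 groups in one fit, which tested 13777, 13156 and 9886 genes. Responses of lines were compared by interaction terms, in one fit of both human lines (15018 genes) and one of all lines over shared symbols (11736 genes), for genes that passed the filter within both lines compared, a restriction set after the values were seen. DESeq2 1.42.0 and limma 3.58.1 were alternatives. CPM are TMM-scaled. Limits from counts take 3 counts as the floor and cover counting error only. The steps were tested on simulated data. Gene positions and overlaps came from GENCODE v44lift37 on GRCh37, the build that HG19 names, and upstream bases from the GRCh37 sequence. All 7 genes are named, and from each related list at most the 4 called genes with the largest change. These genes and lists were chosen with earlier results of these data known. The study calls its replicates independent, and p-values measure the spread between cultures of 1 line. A gene of the receptor complex list and a marker gene are not reported here. No value from the authors' own comparisons was used.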

Additional observations from a re-analysis of the deposited data

Results flagged for a closer look

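No difference in response between lines is listed for the 7 genes themselves. In the related lists the test of the difference itself passed for 4 genes (edgeR's quasi-likelihood test, FDR under 0.001). ALDH1A3 had 3.80 ± 0.233 more response in PC-3 than in LNCaP at 12 h (FDR = 1.11e-07) and 3.55 ± 0.232 at 24 h (FDR = 5.68e-07). IDO1 had 6.44 ± 0.595 more in CT1258 than in PC-3 at 12 h (FDR = 3.91e-07) and 3.96 ± 0.717 at 24 h (FDR = 0.000766), from at most 17 counts in a CT1258 sample. The 24 h difference ended in 15 of 26 fits that left out 1 sample (FDR up to 0.00529). HSP90AA1 had 0.96 ± 0.193 more in CT1258 than in PC-3 (FDR = 0.000591) and 0.90 ± 0.184 more than in LNCaP (FDR = 0.000541), both at 12 h, and these calls ended in 16 of 26 fits (FDR up to 0.00555) and 18 of 26 fits (FDR up to 0.00691). CUL4B had 1.57 ± 0.265 more in CT1258 than in LNCaP at 12 h (FDR = 8.67e-05).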

How the results depend on the processing

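The fits were repeated with DESeq2's size factors, no filter on low counts, at least 1 CPM in 3 samples, edgeR's likelihood ratio test, DESeq2's Wald test, limma voom with quality weights, only the groups compared, thinned CT1258 controls, and each sample left out. The counts of called genes moved by over 1.5 times in 51 of 530 values. In PC-3 a fit without 1 DMSO sample held 1 control, so that its FDR rests on the spread within the other groups. At 0.05 in place of 0.001 the genes called out of the 7 were 5 in PC-3 at 12 h (3 at 0.001), 1 in LNCaP at each time (0), 2 in CT1258 at 12 h (1), 1 in CT1258 from 12 h to 24 h (0), 2 and 2 between PC-3 and LNCaP responses (0 and 0) and 1 between CT1258 and PC-3 responses at 12 h (0). In LNCaP 1 gene, CYP1A1, was called with no filter, the likelihood ratio test, DESeq2 and voom at both times, and at 24 h with only the 2 groups compared. With no filter, 10 and 3 of all 19456 genes were called in LNCaP, and with only 2 groups 8 of 12926 at 24 h. Between PC-3 and LNCaP responses at 12 h there was 1 call with no filter (252 of all 20883 genes) and 2 with the likelihood ratio test and with DESeq2. From 12 h to 24 h in PC-3, voom and the fit of only 2 groups called 2 genes and not 1, beside 2320 of 13777 and 479 of 13300 genes. In CT1258, voom called 2 at 12 h and 2 from 12 h to 24 h, beside 6239 and 2073 of 9886 genes. Only 2 groups compared called 0 and 1 there, beside 3508 of 10124 and 1172 of 9738 genes. In PC-3 at 24 h, CYP1A1 was not called by DESeq2 (FDR = 0.00149) or with only 2 groups compared (FDR = 0.00112).

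Summed over the 6 comparisons with DMSO, the receptor complex list had 16 calls at 0.05 and 9 at 0.001, the other targets 48 and 28, PXR and CAR with targets 5 and 3, and the coregulators 10 and 4. The coregulators had 7 calls with voom, 1 with only 2 groups and 2 with the replicate block, and the tryptophan enzymes 3 with voom (main 5). Leaving out 1 sample gave 2 to 8 calls for the coregulators, 1 to 2 genes in PC-3 from 12 h to 24 h, 0 to 1 in LNCaP at both times, 0 to 2 in CT1258 at 12 h and 0 to 1 from 12 h to 24 h, and 0 to 2 at 12 h and 0 to 1 at 24 h between PC-3 and LNCaP responses. The cause was not tested.

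Values near 0 turned sign. With voom, the log2 difference from 12 h to 24 h in PC-3 was 0.0210 for AHR and 0.0381 for CYP1B1. In LNCaP voom gave AHR -0.0194 at 12 h, and ARNT -0.12 and TIPARP -0.10 from 12 h to 24 h. With no filter ARNT between CT1258 and PC-3 responses at 24 h was -0.0460. Leaving out 1 sample, ARNT ranged from -0.20 to 0.0744 and from -0.21 to 0.0635 in PC-3 at 12 h and 24 h, from -0.0763 to 0.31 in LNCaP at 12 h, from -0.23 to 0.0376 in CT1258 at 24 h, from -0.35 to 0.0515 between PC-3 and LNCaP responses at 12 h and from -0.12 to 0.15 between CT1258 and PC-3 responses at 24 h. ALDH3A1 in PC-3 at 12 h ranged from -0.29 to 0.0709, TIPARP in LNCaP at 12 h from -0.44 to 0.0358 and AHR between PC-3 and LNCaP responses at 12 h from -0.0045 to 0.42. From 12 h to 24 h, AHR ranged from -0.0892 to 0.0058, AHRR from -0.0729 to 0.11, ARNT from -0.0669 to 0.0331 and CYP1B1 from -0.0374 to 0.0422 in PC-3, and ARNT from -0.11 to 0.28 and TIPARP from -0.17 to 0.30 in LNCaP. None of these values was called.

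Between samples of the same replicate number, deviations from the group mean had correlations from -0.42 to 0.19. The lowest value involved LNCaP 12 h replicate 2, which stood apart from its group. Such deviations sum to 0 within a group of few samples, so that the correlations cannot decide whether the numbers pair the samples. With a replicate block, 0 genes were called in LNCaP and 1 in CT1258 at 12 h, as without it. In PC-3 the block fit kept only samples whose number occurs in the DMSO group, which left 1 sample at 12 h. Its count of calls is therefore not given. For PC-3 at 12 h no paired fit was made because the replicate numbers of the 12 h samples are not clear. In CT1258, 3 of 6 listed genes were below the filter, and a count of 0 over the line allows up to 0.0279 CPM. CYP1B1 had 0 counts there also in the DMSO samples, which held 2.64 times the counts of the treated samples. In LNCaP 3 of 7 were below the filter, and the limit is 0.0247 CPM. Total counts were 11923105 to 14741883 in LNCaP, against 14650839 to 18091755 in PC-3, where all 7 passed. Why these genes were low was not tested.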
